A study of Mus musculus with 3 samples.

Results

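The endothelin system was examined in endothelial cells sorted from the embryonic mouse kidney. It was defined as 7 genes, the ligands Edn1, Edn2 and Edn3, the receptors Ednra and Ednrb, and the converting enzymes Ece1 and Ece2, and a probe set was taken as a member if the platform annotation gave it exactly 1 gene symbol equal to one of these. This rule found 7 probe sets of 35557 on the array, for 6 of the 7 genes, with a pair of probe sets for Ece2. No probe set carried the single symbol Ednra, which was not analysed here. The cells came from CD-1 mice at 15.5 days post coitum that carry the transgene Tg(TIE2GFP)287Sato, in which GFP is driven by the promoter of Tek (Tie2), and every sample carries this transgene. Kidneys were pooled by 4 to 5, dissociated with trypsin and sorted for GFP, and each of the 3 pools gave 1 array. The 3 arrays form a single group, so no difference between conditions could be tested. The Tek promoter is also active in some blood cells, which limits the sort as a purification of endothelium.

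Endothelins are short vasoactive peptides that are made as long precursors, cut first by furin-type convertases and then by the endothelin-converting enzymes. EDNRA, known mainly from smooth muscle and mesenchyme, mediates constriction, while EDNRB on endothelial cells releases nitric oxide and prostacyclin and clears endothelin from the blood. EDNRB binds all of the ligands, whereas EDNRA binds EDN3 poorly. In the embryo Edn1 with Ednra patterns cranial neural crest, and Edn3 with Ednrb is required for enteric neurons and melanocytes.

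The question asked of each gene was whether its level lay above the low-signal filter that the study applied, a raw signal of 100, or 6.64 on the log2 scale. The mean of the 3 arrays was tested against this level with limma, separately for above and below and each time one-sided. The study instead kept probe sets with at least 100 in 3 samples, so this test is not its rule. Its filter was applied to raw values in GeneSpring, whose scale may differ from that of the deposited values used here. A gene can exceed 100 in every array and still not pass, as Edn3 did. The p-values were adjusted by the method of Benjamini and Hochberg across the 35557 probe sets, at a threshold of 0.05. Whether the pools were drawn from different litters is not in the labels, and the p-values then reflect no more than the spread of these 3 arrays, which may be technical. The deposited values are log2 signals in which 55.9% of probe sets have the same value to every printed digit in at least 2 of the 3 arrays, and 19.7% in all 3. A gene with equal values has almost no spread, and its call can then rest on a very small distance from the level. A fit with 1 spread pooled over all probe sets (SD 0.49 log2) was therefore run beside it. Probe sets differ in affinity, so the level of one gene was not set against that of another.

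Of the 6 measured endothelin genes, Ednrb, Ece1 and Edn1 were above the filter level, Edn2 was below it, and Edn3 and Ece2 were on neither side. For comparison, 41.6% of all 19938 named genes were above and 41.6% below, and of the 35557 probe sets 35.5% were above and 41.7% below. The count of 3 in 6 is close to that share and is no finding about the family as a whole. With the pooled spread 3 endothelin genes were above, Ednrb, Ece1 and Ece2, and 0 were below. Ece2 was counted above only through the probe set for Eef1akmt4 and its read-through into Ece2. The probe set that contains Ece2 itself was below in this fit, and counting Ece2 by it gave 1 gene below. The shares were then 36.0% above and 32.5% below over genes, and 34.0% and 38.7% over probe sets. The genes differed in how firmly they were placed. Ednrb and Ece1 lay far above the level, while Edn1 and Edn2 lay within 0.12 log2 of it on opposite sides.

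**Figure D1:**
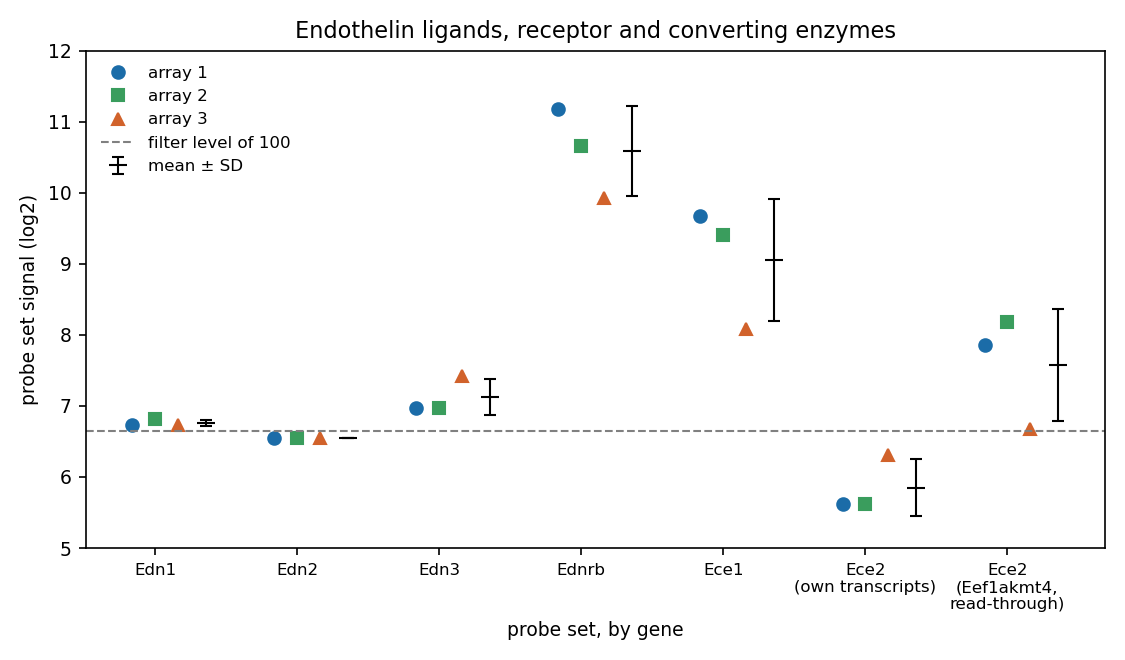
The log2 signal of each endothelin probe set (x axis) is plotted for arrays 1, 2 and 3, with the mean ± SD of the 3 arrays in black and the filter level of 100 as a dashed line. Ednrb and Ece1 lie above the line in every array and are lowest in array 3, Edn1 and Edn2 lie next to the line, and both Ece2 probe sets differ in level and in which array is lowest.

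Among the ligands, Edn1, which encodes the endothelin that endothelial cells are best known to secrete, measured 6.73, 6.82 and 6.73 log2 in arrays 1, 2 and 3 (signals of 106, 113 and 106). The 3 arrays thus stood barely over the filter, and arrays 1 and 3 held the same value. The mean of 6.76 ± 0.05 (SD, n = 3) exceeded the level by 0.12 log2 and passed the limma test with an adjusted p of 0.043. With the pooled spread the same distance did not pass (adjusted p = 0.772 in limma), nor did it pass after the arrays were centred on their median (0.0892) or quantile normalized (0.126).

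The start of Edn1 is shown because the factors known to act on it were also measured in these cells. Its promoter window in RefSeq, 250 bases before to 50 after the annotated start (GRCm38.p6, chr13:42301226-42301525, plus strand), is printed 5′ to 3′ with the motif matches in capitals, beside that of Ednrb (chr14:103843652-103843951, minus strand).
Edn1: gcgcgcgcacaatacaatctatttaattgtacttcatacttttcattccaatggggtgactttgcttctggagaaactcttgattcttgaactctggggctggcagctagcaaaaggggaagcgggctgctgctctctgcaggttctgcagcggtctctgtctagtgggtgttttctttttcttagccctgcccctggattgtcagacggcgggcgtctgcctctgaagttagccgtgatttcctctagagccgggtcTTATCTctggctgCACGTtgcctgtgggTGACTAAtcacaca
Ednrb: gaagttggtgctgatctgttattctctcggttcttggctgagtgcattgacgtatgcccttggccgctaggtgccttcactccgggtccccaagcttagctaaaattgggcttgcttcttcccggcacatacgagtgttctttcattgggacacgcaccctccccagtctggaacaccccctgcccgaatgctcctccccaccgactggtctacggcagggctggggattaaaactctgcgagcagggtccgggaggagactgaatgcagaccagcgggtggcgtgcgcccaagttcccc
The motifs searched on both strands were a GATA motif (AGATAA), an AP-1 motif (TGACTNA), the core of the hypoxia response element (ACGTG) and an ETS motif (TTCCTG). The Edn1 window holds the GATA motif on the reverse strand at bases 9 to 14 after the annotated start, the hypoxia core on the reverse strand at bases 22 to 26, and the AP-1 motif at bases 37 to 43, with no overlap between them. Of 32851 promoter windows of this length, 11.2% hold the GATA motif, 13.9% the AP-1 motif, 19.6% the hypoxia core and 30.6% the ETS motif, so that each match alone is common. None of these letters is found in the Ednrb window. These are matches of letters and not measured binding sites.

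Of the 9 listed regulators of Edn1, 8 lay above the level and 1 lay below it (7 and 0 with the pooled spread), beside 41.6% of all named genes on each side, and 36.0% above and 32.5% below with the pooled spread. The GATA factor Gata2, which activates Edn1 in endothelium, was at 7.11 log2 in every array, and it was above the level but not with the pooled spread. Of the AP-1 subunits, Jun was above at 9.01, 8.94 and 8.25 log2 in arrays 1 to 3, whereas Fos was below at 6.38 ± 0.02, again not with the pooled spread. Hif1a and Arnt, whose products together bind the hypoxia element, were above at 9.18 ± 0.97 and 8.39 ± 0.41 (SD, n = 3). Smad3, a transducer of TGF-beta signals, was above as well at 7.83 ± 0.15, as were Foxo1, Klf2, which represses Edn1, and Vezf1.

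Edn2, the least studied ligand, was at 6.55 log2 in all 3 arrays, a signal of 93.7. It was called below the level (adjusted p = 0.00158 in limma), but the distance is 0.09 log2 and the call rests on 3 identical values. It was not below with the pooled spread, where the adjusted p was 0.727. Edn3, the ligand of the EDNRB pathway in neural crest, was at 6.98, 6.98 and 7.43 log2 in arrays 1, 2 and 3 (signals of 126, 126 and 172). Every array was over 100 and array 3 was highest, opposite to the endothelial markers described below. The mean of 7.13 ± 0.26 (SD, n = 3) did not pass the test (adjusted p = 0.0724 in limma, and 0.123 with the pooled spread). It passed after median centring, with an adjusted p of 0.0387.

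Ednrb was at 11.18, 10.66 and 9.92 log2 in arrays 1, 2 and 3, which are signals of 2313, 1617 and 970. All 3 arrays were more than 3 log2 units above the filter, and array 1 exceeded array 3 by 2.38-fold. The mean lay 3.94 ± 0.33 (SE, n = 3) log2 over the level, with an adjusted p of 0.00696 in limma. It stayed above the level with the pooled spread, under every scaling, with any 1 array left out and with a filter level of 200 (adjusted p = 0.0255 at that level). Its probe set lists 3 RefSeq transcripts, all of Ednrb. The study chose Ednrb among genes elevated in these samples against other embryonic compartments, so its high signal here is not independent evidence of that.

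Ednrb is also known from neural crest cells and melanoblasts, and markers of these were examined in the same arrays. Of 7 measured markers, Sox10, a factor of neural crest glia, and Ngfr were above the level and 3 were below. With the pooled spread 1 was above and 4 were below, and Ngfr was on neither side. Over all named genes 41.6% were on each side, and 36.0% above and 32.5% below with the pooled spread. Sox10 measured 7.23, 7.23 and 7.45 log2 in arrays 1 to 3, and it was above the level with the pooled spread too. Erbb3, a receptor gene of glial precursors, was below at 5.85 ± 0.01, and the melanoblast genes Dct and Tyr were below at 5.33 ± 0.05 and 4.91 ± 0.73 (SD, n = 3). The mean of the list was 5.77, 5.80 and 6.23 log2 in arrays 1 to 3, highest where Ednrb was lowest. Mitf, at 4.05, 4.23 and 5.53, and Tyr, at 4.49, 4.49 and 5.75, made up most of this difference, and the other 5 markers ranged over 0.21 log2 or less. The median of the olfactory and vomeronasal receptor genes, 4.67, 4.71 and 5.08, was also highest in array 3. The part of such cells in the Ednrb signal was not tested.

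The converting enzyme genes followed different courses. Ece1, which encodes the main enzyme that releases active endothelin in blood vessels, was at 9.68, 9.41 and 8.08 log2 in arrays 1, 2 and 3, signals of 818, 681 and 271. All arrays were over the filter, arrays 1 and 2 were near each other and array 3 was lower by more than 1 log2 unit. The mean of 9.06 ± 0.85 (SD, n = 3) was 2.41 log2 over the level (adjusted p = 0.0327 in limma). The call held with the pooled spread, under both scalings and with any 1 array left out, and it was lost at a filter level of 200 (adjusted p = 0.177).

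Ece2, which encodes an enzyme of acidic intracellular compartments found mostly in neural and endocrine cells, had a pair of probe sets that disagreed. One of them lists 3 RefSeq transcripts, of which 1 belongs to the neighbouring gene Eef1akmt4, a lysine methyltransferase gene, and the others to a read-through of Eef1akmt4 into Ece2, and none to Ece2 alone. It measured 7.86, 8.18 and 6.68 log2 in arrays 1, 2 and 3. The other probe set lists 4 RefSeq transcripts, 2 of Ece2 itself and 2 of the read-through, and measured 5.62, 5.62 and 6.31. Thus the probe set that contains Ece2 itself was under 100 in all 3 arrays, while the one for Eef1akmt4 and the read-through was over 100 in all 3, and array 3 was lowest in the one and highest in the other. Neither passed the test, with a mean of 7.57 ± 0.79 (adjusted p above the level = 0.163 in limma) and 5.85 ± 0.40 (adjusted p below the level = 0.0548). With the pooled spread the first was above the level and the second below it, with adjusted p of 0.00194 and 0.00764. A gene value for Ece2 that averages both mixes these signals, and the signal over 100 under the symbol Ece2 cannot be assigned to this enzyme.

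The 3 pools differed in ways that touch these genes. Ednrb and Ece1 ranged over 1.25 and 1.59 log2 between arrays, where the median range was 0.35 for the whole array and 0.82 when the 3 values of a probe set all differed. A range as wide was found in 13.7% and 8.56% of probe sets. Without array 3 the ranges were 0.52 for Ednrb and 0.26 for Ece1, and without array 1 they were 0.74 and 1.33. Array 3 thus set most of the range of Ece1, while that of Ednrb narrowed without either array. All 15 pan-endothelial markers were also lowest in array 3, with ranges from 0.08 log2 for Cldn5 to 2.19 for Eng. Of all probe sets with 3 different values, 44.4% were lowest in array 3. Cldn5, which holds equal values, falls outside that share. The mean of the 15 markers was 10.14, 9.94 and 9.07 log2 in arrays 1 to 3. Of them 13 were above the level, among them Pecam1, Cdh5, Tek and Tie1, and none below. Over all named genes 41.6% were on each side, and 36.0% above and 32.5% below with the pooled spread. Esam and Eng were on neither side, and both were above with the pooled spread. Macrophage markers took the opposite course, with a mean over 12 genes of 6.60, 7.69 and 8.15 log2, and 9 of the 12 were highest in array 3. The share of all probe sets highest in array 3 was not taken, so that count is a description only. Of these 12 genes 1 was above the level and none below, but 7 and 1 with the pooled spread. Array 3 also had a narrower spread of values (SD 1.84 against 2.08 and 2.06) and a higher signal of olfactory and vomeronasal receptor genes, whose median was 5.08 against 4.67 and 4.71. Fewer endothelial cells in a pool and less RNA per cell cannot be told apart in such data, and the part of macrophages or of array 3 in these differences was not tested.

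**Figure D2:**
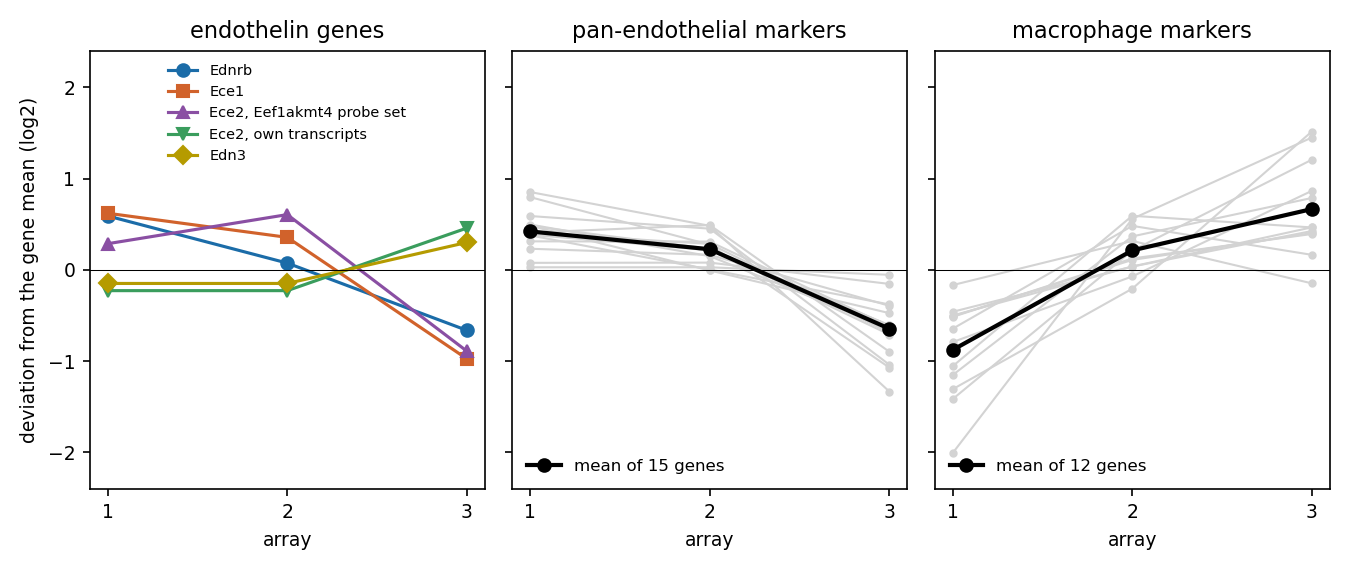
Deviations of each gene from its own mean over the 3 arrays (y axis, log2) are plotted by array for the endothelin probe sets with a range of over 0.4 log2 (left), 15 pan-endothelial markers (middle) and 12 macrophage markers (right), where grey lines are single genes and the black line is their mean. Lines join values of 1 gene and imply no order of the arrays. Ednrb, Ece1 and the Eef1akmt4 probe set are lowest in array 3 like the endothelial markers, and Edn3 and the probe set of Ece2 itself are highest there.

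Set against the mean of the endothelial markers of the same array, Ednrb and Ece1 varied less. The SD of Ednrb over the arrays was 0.63 log2, and the SD of its difference from the endothelial mean was 0.16. For Ece1 these were 0.85 and 0.29, and for the Eef1akmt4 and read-through probe set 0.79 and 0.33. For the probe set of Ece2 itself the difference varied more than the gene, with 0.40 and 0.96. That probe set lay under the 95th percentile of olfactory and vomeronasal receptor genes in each array (6.29, 6.40 and 6.67 log2). A flat gene also gives a larger SD of the difference, as Edn2 did with 0.00 and 0.57. Without array 3 the SD was 0.37 for Ednrb and 0.23 for the difference, and 0.19 and 0.049 for Ece1, but 0.23 and 0.36 for the Eef1akmt4 probe set, so its smaller difference rests on that array. This is a description over 3 arrays and carries no test. After quantile normalization, which gives the 3 arrays the same spread, the range of Ednrb was 0.96 log2 and that of Ece1 1.19, and array 3 was still the lowest in both.

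Among 10097 other named genes with a mean of at least 100, those nearest to Ednrb in their deviations over the 3 arrays were Prkrip1, Cog4 and Rrp8, at Euclidean distances of 0.005, 0.019 and 0.021 log2. Nearest to Ece1 were Nrp1, the neuropilin co-receptor for VEGF, Tmem131 and Dennd5a, at 0.008, 0.008 and 0.013. The probe set of Ece2 itself lay nearest to Lypd9, Stra6l and Mir187, and the other to Ttc23, Ogfod3 and Hmces. With only 3 arrays such likeness is frequent, as 270 genes lay within 0.2 log2 of the pattern of Ednrb and 206 within that of Ece1.

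Genes that cut the precursors and remove the peptides lay on both sides of the level. Of 5 measured proprotein convertases, Furin at 6.86, Pcsk5 at 6.999 and Pcsk7 at 7.02 ± 0.07 log2 were above the level, Pcsk1, a convertase of endocrine cells, was below at 5.28, and Pcsk6 at 6.43 ± 0.24 was on neither side (SD, n = 3). Furin and Pcsk5 had the same value in all 3 arrays, and with the pooled spread none of the 5 was above. The shares over all named genes were 41.6% on each side, and 36.0% above and 32.5% below with the pooled spread. The convertases, a short list near these shares, are given as counts only. Of 8 other peptidases 6 were below the level, with the pooled spread as well. They include neprilysin Mme at 5.46 ± 0.07, which degrades endothelins, Kel at 4.69 ± 0.12, whose product can activate EDN3, and the mast cell chymases Cma1 at 5.16 ± 0.02 and Mcpt4 at 5.05 ± 0.22. Of 7 mast cell markers, which include both chymases, 6 were below the level (5 with the pooled spread), where 41.6% of all named genes were below (32.5% with the pooled spread). The other was Kit, at 8.56 ± 0.90, which was above with the pooled spread. The exception among the peptidases was Ctsa, the lysosomal cathepsin A, which was above at 8.58, 8.44 and 7.86 log2 in arrays 1 to 3.

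**Figure D3:**
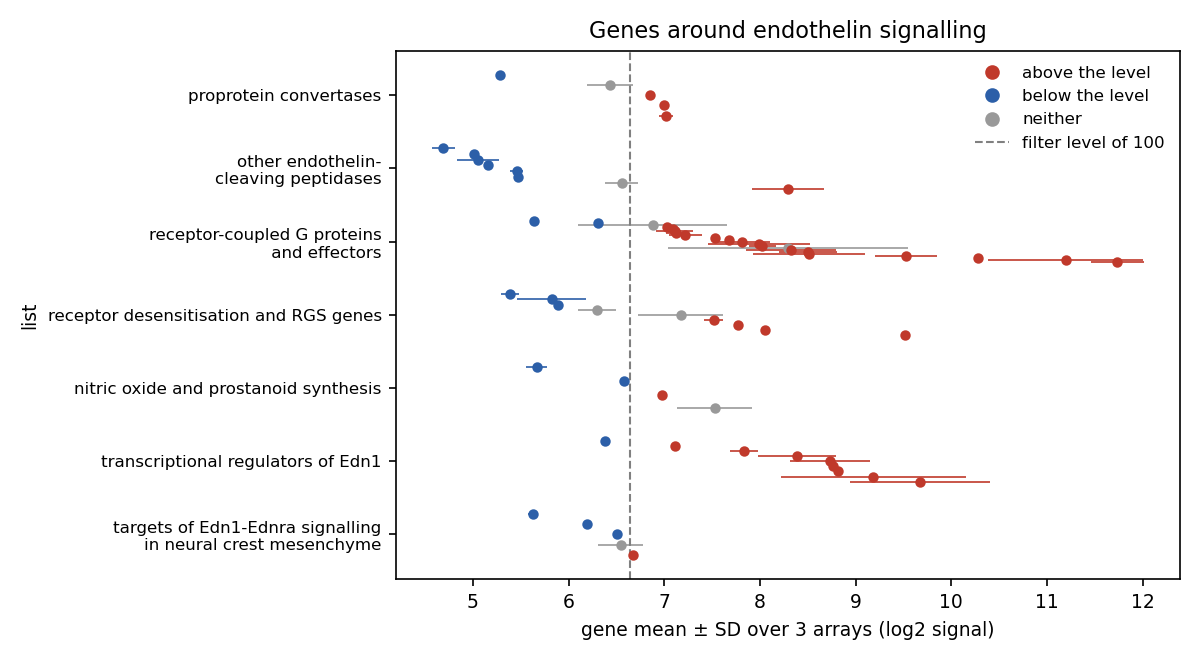
Each point is a gene's mean log2 signal over 3 arrays (x axis) with its SD as a bar, grouped by list (y axis), in red if above the filter level of 100 (dashed line), in blue if below and in grey if neither. The G protein list and the regulators of Edn1 lie mainly right of the line, and the peptidases mainly left of it.

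Most G proteins and effectors that endothelin receptors use were above the level. Of the 21 measured, 17 passed above the level and 2 below it (13 and 1 with the pooled spread), where 41.6% of all named genes passed on each side, and 36.0% above and 32.5% below with the pooled spread. The median of their gene means was 7.81 log2, against 6.67 over all named genes. Probe sets differ in affinity, so these medians are a description and not a comparison of expression. Of the G alpha subunits, Gnaq was at 7.81 ± 0.29, Gna12 at 8.02 ± 0.14, Gna13 at 8.51 ± 0.59, Gnai2 at 11.20 ± 0.81 and Gnai3 at 9.53 ± 0.32 log2, all above the level (SD, n = 3). Gna11 measured 9.49, 8.39 and 6.999 in arrays 1 to 3, and with this wide spread it did not pass. Among phospholipases C, which generate the calcium signal, Plcb3 at 7.68 and Plcb4 at 8.50 ± 0.31 were above, Plcb2, known from blood cells, was below at 5.64, and Plcb1 at 6.88 ± 0.78 was on neither side. Rhoa, the GTPase downstream of Gna12 and Gna13, had a pair of probe sets, both above the level, with a mean of 11.74 ± 0.28. Array 3 held the lowest value for 14 of the 21 genes and the highest for none. Of all probe sets with 3 different values, 44.4% were lowest in array 3. That share leaves out probe sets with equal values, which some of the 21 genes have, so the count is a description only.

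Of 9 measured genes that switch receptors off, 4 were above the level and 3 below, also with the pooled spread. Over all named genes 41.6% were on each side, and 36.0% above and 32.5% below with the pooled spread. The counts are close to these shares and are no finding about the list. Above were the kinase gene Grk5 at 7.77 ± 0.03 log2, the arrestin gene Arrb2 at 8.05, and the G protein inhibitors Rgs2 at 9.52 ± 0.04 and Rgs3. Grk3, Rgs4 and the pericyte gene Rgs5 were below (SD, n = 3). Of the 4 measured genes for the vasodilators released through EDNRB, 1 was above the level and 2 were below (1 and 1 with the pooled spread). The same shares over all named genes apply, and so short a list is given as counts only. The endothelial nitric oxide synthase Nos3 measured 7.80, 7.70 and 7.08 log2 in arrays 1 to 3, over 100 in each, and narrowly missed the threshold (adjusted p = 0.0503 in limma). It passed in 9 of 12 alternative fits, the exceptions being a filter level of 200 and the fits without array 1 or without array 2. Prostacyclin synthase Ptgis was above at 6.97 ± 0.00, though not with the pooled spread, and Ptgs2 and Pla2g4a were below.

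Since Ednra was not analysed here, its usual cells and targets were examined through their own genes. Of 11 measured mural and mesangial markers 8 were below the level and 1 was above, where 41.6% of all named genes were on each side. With the pooled spread 4 of the 11 were below, close to the share of 32.5% over all named genes, and 0 were above. The pericyte genes Pdgfrb, Rgs5 and Cspg4 were below at 5.87, 5.89 and 6.17 log2, and smooth muscle actin Acta2 was above at 7.21, each with the same value in all 3 arrays. Of 5 genes that EDN1 acts on through EDNRA in cranial mesenchyme, Dlx3, Dlx5 and Hand1 were below and Dlx6 was above at 6.68, next to the level. With the pooled spread 1 of the 5 was below and none above. Markers of other kidney cells were on both sides of the level. Renal stroma had 4 of 6 above and 1 below (2 and 1 with the pooled spread), capping mesenchyme 4 of 6 and 2 (2 and 1), ureteric bud 2 of 6 and 3 (1 and 1), podocytes 2 of 4 and 1 (2 and 1), and red cells 1 of 5 and 3 (0 and 3). Over all named genes the shares were 41.6% on each side, and 36.0% above and 32.5% below with the pooled spread, and lists this short are given as counts only. The signals of such cells in the endothelin genes were not tested.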

How the data were processed

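RNA of the sorted cells went through 1 round of amplification (NuGEN WT-Ovation Pico) before hybridization on Affymetrix Mouse Gene ST arrays. The deposited table holds log2 signals of 35557 probe sets in 3 arrays. Affymetrix Expression Console is the tool given in the submitters' processing notes, and its version and summarization method are not given in the sources used here. For its own comparisons the paper names RMA normalization. The log2 values were used as deposited, and the number of arrays limits their precision. Of the probe sets, 21789 had exactly 1 symbol in the platform annotation, 1621 had several and 12147 were unnamed here. A RefSeq table of GRCm38.p6 gave current symbols by gene identifier for 21698 of them, and probe set accessions were looked up there without version. Sequences are from RefSeq, and both promoters looked up were found. Probe positions are not printed, since the files name no build.

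An intercept-only limma fit with eBayes (limma 3.58.1, R 4.3.3) tested each mean against log2 of 100. With several probe sets, 1 above made a gene above, and a gene was below when each of them was. The fit's prior weighed little (0.41 degrees of freedom), so equal values gave very small errors. The fit was tested on simulated data with known means, drawn with the observed spread of each probe set. Probe sets with 3 equal values had no error there, so the simulation cannot show whether their small errors mislead. Other filter levels, spreads, scalings and left-out arrays were tried. Python 3.11.15 with numpy 2.4.6 and pandas 2.3.3 was used for the rest. The members and lists were chosen with earlier results of these data known. The genes named were all members, the measured genes of lists with 6 or fewer, otherwise the first 4 of a list and the first 3 above and below the level in list order, with others named after their values were seen. For endothelin probe sets with a range of at least 0.5 log2, the 3 nearest genes by deviations were named.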

Additional observations from a re-analysis of the deposited data

How the results depend on the processing

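Results are given as distance from the level in log2. No paired analysis was possible because the series holds a single group. With a filter level of 50 or 200, the direction turned for Edn2 (0.91 at 50), Edn1 (-0.88 at 200), Edn3 (-0.52 at 200), the probe set of Ece2 itself (0.21 at 50) and that of Eef1akmt4 and the read-through (-0.072 at 200). Ece1 was no longer past the test at 200 (1.41), while Edn3 (1.48) and the Eef1akmt4 probe set (1.93) passed at 50 and the probe set of Ece2 itself at 200 (-1.79). Then 6 endothelin genes were above and 0 below at 50, and 1 and 3 at 200, with 5 pathway genes of 61 below at 50, and 10 above and 34 below at 200, against 35 and 18 at 100. Moving the level changes the distance of every gene. Shares over all named genes were taken only for the level of 100, with the reported and the pooled spread. Counts in the other fits are therefore no finding about these genes.

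Against the 95th percentile of olfactory and vomeronasal receptor genes in each array, Edn1 (0.31) did not pass, Edn2 turned direction (0.10), and Edn3 (0.67), the probe set of Ece2 itself (-0.60) and the Eef1akmt4 one (1.12) passed. With the pooled spread, Edn1 (0.12) and Edn2 (-0.094) did not pass, and the Ece2 (-0.79) and Eef1akmt4 (0.93) probe sets did. After median centring Edn1 (0.12) and Edn2 (-0.0935) did not pass, whereas Edn3 (0.48) and Ece2 itself (-0.79) did. After quantile normalization Edn1 (0.11) and Edn2 (-0.10) did not pass and Ece2 itself (-0.77) did. The number of endothelin genes below was 0 in each of these 4 fits, and 0 over probe sets with 3 different values, a fit added after seeing the data, in which fewer genes could be tested. Counting Ece2 by its own probe set, also added later, gave 1 in the reported fit, which is Edn2, and 1 in each of the 4 fits, which is Ece2.

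Leaving out 1 array, probe sets with 2 equal values left had no spread and were not tested. Edn1 was then 0.13 over the level and did not pass without replicate 1 or 3, the Eef1akmt4 probe set was at 0.63 to 1.37 and passed without replicate 3, and 0 endothelin genes were below. Pathway genes above numbered 17 to 20 and below 0 to 7, where fewer genes were tested. The range over the arrays left was 0.00 to 0.082 for Edn1, 0.00 to 0.45 for Edn3, 0.52 to 1.25 for Ednrb, 0.26 to 1.59 for Ece1, 0.00 to 0.69 for Ece2 itself and 0.32 to 1.495 for the Eef1akmt4 probe set, the lowest of each but Edn1 without replicate 3. The SD of the difference of Ece2 itself from the endothelial mean was 0.14 to 1.24. The range of Edn2 became 0.049 log2 with median centring and 0.044 with quantile normalization, which shift equal values apart. Ednrb kept its call in each of these fits. The causes were not tested beyond what is stated.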
